A study of Mus musculus with 4 samples.

Results

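The cytochrome P450 genes of families 1 to 3 were examined in the liver of aP2-SREBP-1c mice. A gene belonged to this set if its symbol begins with Cyp1, Cyp2 or Cyp3 followed by a letter, if it is not marked as a pseudogene in the symbol, and if a probe set on the array carries that symbol alone. This gave 53 of 19938 genes, each with 1 such probe set. RefSeq lists 60 protein-coding genes of these families. Of these, 52 were measured singly, 7 were found only on probe sets that carry several symbols, and Cyp2j8 was not analysed here. The 53rd gene, Cyp2d13, is listed by RefSeq as a pseudogene.

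Liver RNA came from 4 male mice with 1 Mouse Gene 1.0 ST array per mouse, a 1-colour array with probes along the length of each transcript. The mice carried B6-TgN(aP2-HA-SREBP-1cNT) on a C57Bl6 background, a transgene in which the aP2 promoter drives the transcriptionally active part of human SREBP-1c, with an HA tag, in adipocytes. They were fed regular chow and killed at 24 weeks of age according to the labels, and the paper describes the model as lipodystrophic with aggravated hepatic lipid accumulation. All 4 mice received the transgene and no treatment, and arrays of other genotypes were not analysed here. Therefore the level of each gene and its spread between the mice are given, with no p-value, because a single group allows no comparison between groups.

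P450 enzymes of families 1 to 3 are heme proteins of the endoplasmic reticulum that oxidize drugs, environmental chemicals, steroids, bile acids and unsaturated fatty acids. They take electrons from P450 oxidoreductase and cytochrome b5. Most are made in hepatocytes, many of them preferentially around the central vein, and their genes lie in tandem clusters of close paralogs. The receptors AhR, CAR and PXR induce many of these genes in response to foreign compounds, whereas the pattern of growth hormone secretion sets the difference between male and female liver.

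The deposited values are log2 expression values, and an SD or a difference given without a unit is on this scale. A gene was called above background if it exceeded a limit on every array. The limit was the 95th percentile of the 1210 olfactory or vomeronasal receptor probe sets, most of whose targets are expressed in sensory neurons. Some of these receptors may be expressed in other tissues. This limit was between 5.33 and 5.52. All 13 measured hepatocyte markers were above background. The array of mouse 1 stood apart from the rest. Its values were compressed, so that abundant transcripts appeared lower and weak ones higher than on the other arrays. The summed linear level of 13 pancreatic acinar genes, 10 of them above background, was 3730, 859, 1060 and 3059 in mice 1 to 4, and that of 8 stellate cell genes was 2806, 4695, 4798 and 3716. Non-P450 markers of pericentral hepatocytes, of which 10 of 11 were above background and Axin2 was not, summed to 11290, 17370, 17790 and 14520. The part of these differences in the results was not tested, and in whole liver fewer cells of a type and less RNA per cell cannot be told apart.

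The region around the transcription start was compared for the 45 members with a RefSeq window of 250 bases before to 50 bases after the start (assembly GRCm38.p6). These members had 48 windows. The windows of 6 members are printed 5′ to 3′ because they carry the patterns described here. Cyp2c29 and Cyp2c38 are paralogs of one tandem run with a very different spread between mice, Cyp2c67, Cyp2c68 and Cyp3a11 share a motif, and Cyp1a2 is the AhR target with the widest spread among members above background outside the Cyp2c subfamily. Capitals mark TATAAA, the letters of a TATA box, and CAAAGTCCA, a sequence bound by the hepatocyte regulator HNF4A.
Cyp2c29 (chr19:39286835-39287134, plus strand): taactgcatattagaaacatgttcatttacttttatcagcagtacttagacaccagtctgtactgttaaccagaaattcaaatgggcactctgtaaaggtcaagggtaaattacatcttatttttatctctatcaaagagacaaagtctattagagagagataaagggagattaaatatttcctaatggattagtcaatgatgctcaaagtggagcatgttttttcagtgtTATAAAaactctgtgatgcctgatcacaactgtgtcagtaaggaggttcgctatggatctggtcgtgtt
Cyp2c38 (chr19:39463026-39463325, minus strand): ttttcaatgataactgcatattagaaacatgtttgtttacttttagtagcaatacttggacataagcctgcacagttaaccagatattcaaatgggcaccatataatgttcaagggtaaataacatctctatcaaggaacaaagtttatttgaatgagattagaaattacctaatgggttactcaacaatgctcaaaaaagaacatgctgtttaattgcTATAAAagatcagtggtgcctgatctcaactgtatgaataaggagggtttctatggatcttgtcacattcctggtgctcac
Cyp2c67 (chr19:39648993-39649292, minus strand): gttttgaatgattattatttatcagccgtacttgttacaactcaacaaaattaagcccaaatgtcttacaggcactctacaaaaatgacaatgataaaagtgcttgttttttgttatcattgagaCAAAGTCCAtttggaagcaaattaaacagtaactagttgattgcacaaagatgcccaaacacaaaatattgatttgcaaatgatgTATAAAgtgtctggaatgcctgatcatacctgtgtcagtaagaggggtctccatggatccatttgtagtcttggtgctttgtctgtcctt
Cyp2c68 (chr19:39741052-39741351, minus strand): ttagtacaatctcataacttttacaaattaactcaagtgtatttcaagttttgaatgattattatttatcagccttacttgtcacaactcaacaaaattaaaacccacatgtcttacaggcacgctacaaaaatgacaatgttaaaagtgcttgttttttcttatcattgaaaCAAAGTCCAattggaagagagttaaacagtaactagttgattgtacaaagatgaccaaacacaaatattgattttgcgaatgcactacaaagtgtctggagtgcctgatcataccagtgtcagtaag
Cyp3a11 (chr5:145879805-145880104, minus strand): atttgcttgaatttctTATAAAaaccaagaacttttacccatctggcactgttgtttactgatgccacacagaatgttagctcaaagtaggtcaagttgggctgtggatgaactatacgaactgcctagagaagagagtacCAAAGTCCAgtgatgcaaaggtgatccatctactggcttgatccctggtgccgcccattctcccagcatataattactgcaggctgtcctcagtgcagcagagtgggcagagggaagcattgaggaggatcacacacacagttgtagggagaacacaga
Cyp1a2 (chr9:57683606-57683905, minus strand): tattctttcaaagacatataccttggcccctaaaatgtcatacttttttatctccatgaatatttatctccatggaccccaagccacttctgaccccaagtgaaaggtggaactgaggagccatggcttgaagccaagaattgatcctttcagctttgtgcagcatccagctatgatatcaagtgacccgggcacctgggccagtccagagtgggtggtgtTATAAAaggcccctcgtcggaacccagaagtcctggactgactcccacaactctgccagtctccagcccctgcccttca

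CAAAGTCCA on either strand was found in 6 of 48 windows (12.5%), compared with 0.475% of 32851 windows of all genes. The 6 genes were Cyp2c65, Cyp2c67, Cyp2c68, Cyp2c70, Cyp3a11 and Cyp3a16, and the match lay between 64 and 125 bases before the start. These are 4 Cyp2c and 2 Cyp3a genes, and paralogs inherit their sequence from a common ancestor, so the windows are not independent. Genes above background and genes not above it both held the motif. Cyp2c67, Cyp2c68, Cyp2c70 and Cyp3a11 were above background in all 4 mice, whereas Cyp2c65 and Cyp3a16 were not.

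TATAAA on either strand was found in 22 of 48 windows (45.8%), compared with 13.6% of all windows. It was present in 16 of 29 windows of members above background and in 6 of 19 windows of the other members. The median position of the 23 matches was 31 bases before the start, and 12 of them lay between 20 and 40 bases before it. The AhR core TNGCGTG was found in 1 window (2.08%, compared with 5.07% of all windows), that of Cyp2c68. The window of Cyp1a2 did not hold these letters. The palindrome TTGCGCAA of C/EBP factors was found in 0 of 48 windows (0.183% of all), and TTCNNNGAA of STAT5 in 2 (4.17%, compared with 8.3%), those of Cyp2j11 and Cyp2j12. A match describes the letters only, and binding was not measured.

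Of the 53 members, 32 were above background in all 4 mice, compared with 12264 of all 19938 genes (61.5%). By this share the members were not detected more often than genes in general. The detected genes included Cyp1a2, Cyp2a12, Cyp2b10, Cyp2e1, Cyp2f2 and 11 of 13 Cyp2c, 6 of 9 Cyp2d, 3 of 6 Cyp2j and 4 of 6 Cyp3a genes, together with Cyp2r1, Cyp2u1 and Cyp2w1. Of the 21 other members, 5 exceeded the limit on 1 to 3 arrays. These were Cyp2a22 and Cyp2s1 on 3 arrays, Cyp2b9 and Cyp2b23 on 2 arrays, and Cyp2d11 on 1 array. The remaining 16 members, Cyp1a1, Cyp1b1, Cyp2ab1, Cyp2b13, Cyp2b19, Cyp2c65, Cyp2c66, Cyp2d12, Cyp2d34, Cyp2g1, Cyp2j11, Cyp2j12, Cyp2j13, Cyp2t4, Cyp3a16 and Cyp3a57, exceeded it on none. Their highest single value was 5.37 for Cyp2d34 and their lowest was 2.01 for Cyp2c65.

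The members nearest to the limit were Cyp2c55 and Cyp2c39 above it, and Cyp2s1 and Cyp2d34 below it. Cyp2c55, an enzyme induced by CAR and PXR ligands, had values of 5.53, 5.82, 5.58 and 5.58 in mice 1 to 4, and its lowest value lay 0.01 above the limit of its array. Cyp2s1, an AhR-responsive gene of epithelia, was measured at 5.40, 5.72, 5.69 and 5.49. Only mouse 1 was below its limit for this gene, with a margin of -0.12. Cyp2d34 was measured at 5.37, 5.24, 5.18 and 5.24, and all of these values were below the limit.

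**Figure D1:**
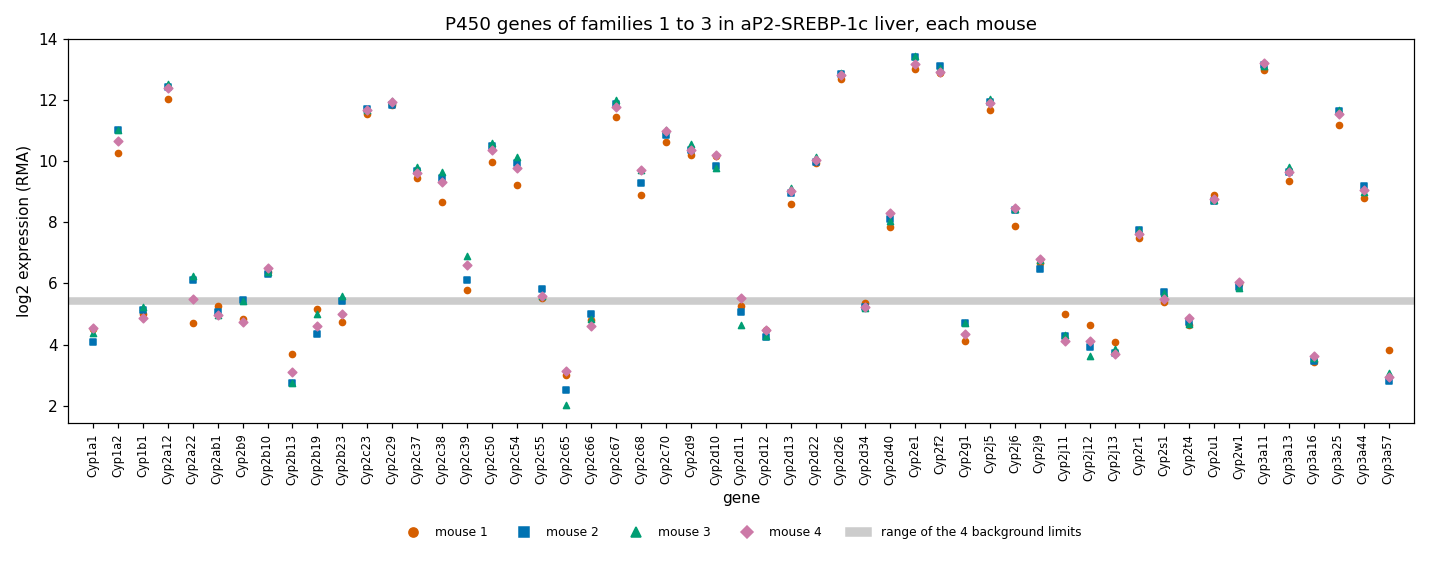
Log2 expression (RMA, y axis) of all 53 P450 genes of families 1 to 3 in each mouse, with the range of the 4 background limits (5.33 to 5.52) as a grey band. The 4 mice of most genes lie close together, and the 32 genes above background have all 4 points above the limits of their arrays; heights of different genes come from different probes and have no common scale.

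Between the mice, 6 of 32 members above background differed by more than 1.5-fold from the lowest to the highest mouse, compared with 1584 of 12264 genes (12.9%). The 6 genes were Cyp1a2, Cyp2c38, Cyp2c39, Cyp2c50, Cyp2c54 and Cyp2c68, and each was lowest in mouse 1. The median SD between mice was 0.17 for the members and 0.15 for all genes above background. Individual members ranged from 0.07 for Cyp2c29 to 0.50 for Cyp2c39. Among mice 2, 3 and 4 alone, the median SD of these 32 members was 0.10, compared with 0.11 for all genes. In these 3 mice only Cyp2c39 of the 6 genes differed by more than 1.5-fold, and Cyp2a22, which was above background without mouse 1, did so as well, compared with 2.7% of all genes above background in these mice.

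The lowest value was found in mouse 1 for 26 of 32 members, compared with 46.1% of all genes above background. Relative to the mean of mice 2, 3 and 4, mouse 1 had a median difference of -0.28 over the members and -0.08 over all genes. The members were highest in mouse 3 in 18 cases, in mouse 4 in 8, in mouse 2 in 5 and in mouse 1 in 1. The level of the members matters for this comparison, since 21 of the 32 members belonged to the highest of 10 classes of mean expression. In this class, 78.1% of all genes were lowest in mouse 1, with a median difference of -0.23. Of the 21 members, 19 were lowest in mouse 1, with a median difference of -0.31. The difference between members and other genes of this class was not tested.

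The 4 arrays were also quantile normalized, which gives them one common distribution. The median difference of mouse 1 was then -0.12 for the members and -0.02 for all genes above background. The members were lowest in mouse 1 in 21 of 32 cases, compared with 36.1% of all genes. In the highest class of mean expression this applied to 15 of 21 members and to 43.5% of all genes, with median differences of -0.14 and -0.05. There were 4 genes, Cyp2c38, Cyp2c39, Cyp2c54 and Cyp2c68, that still differed by more than 1.5-fold, compared with 10.6% of all genes, whereas Cyp1a2 and Cyp2c50 did not. The median difference of mouse 1 was therefore negative on both scales, and its size for the members was smaller after quantile normalization. For Cyp2c23, Cyp2c29, Cyp2d22 and Cyp2j9 the difference changed from negative to positive. The number of members highest in mouse 1 changed from 1 to 5.

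**Figure D2:**
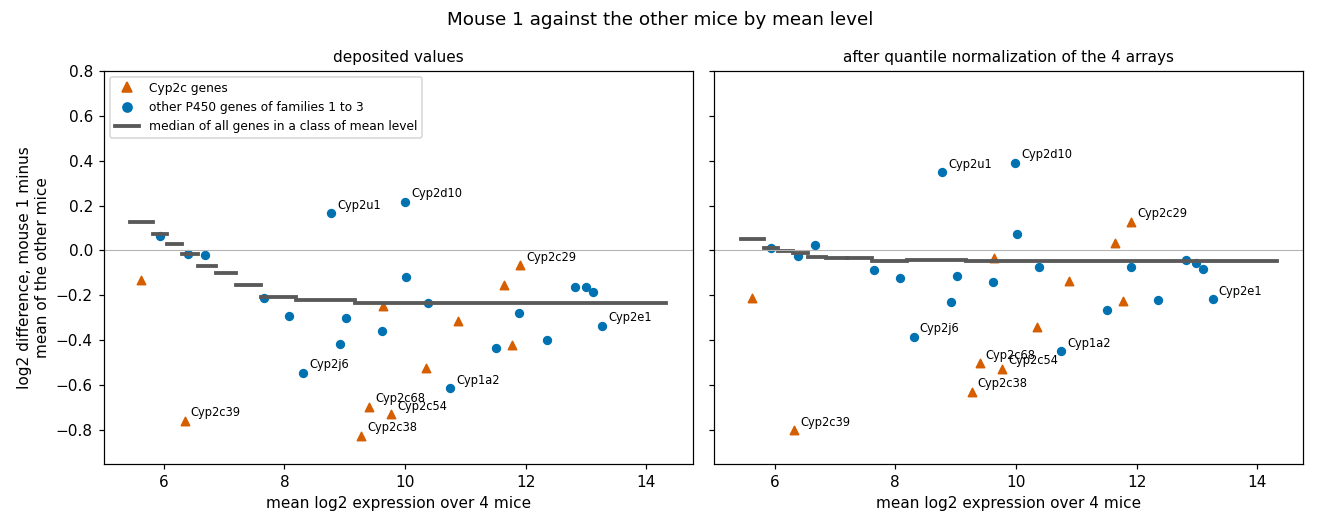
Log2 difference of mouse 1 from the mean of the other mice (y axis) against mean log2 expression (x axis) for the 32 members above background, before (left) and after (right) quantile normalization; dark lines are medians of all genes in 10 classes of mean expression. Cyp2c38, Cyp2c39, Cyp2c54 and Cyp2c68 lie far below the line in both panels, while Cyp2u1 and Cyp2d10 lie above it.

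Among the AhR-responsive genes, which metabolize aromatic hydrocarbons and arylamines, 1 of 4 was above background, beside 61.5% of all genes. Cyp1a2, the pericentral enzyme that oxidizes caffeine and arylamines, was measured at 10.29, 11.02, 11.03 and 10.65 in mice 1 to 4. Mice 2 and 3 were nearly equal, mouse 4 was intermediate and mouse 1 was lowest, a 1.68-fold range with a mean of 10.75 ± 0.35 (SD, n = 4). Cyp1a1, its neighbour and the classical marker of AhR activation, was measured at 4.52, 4.10, 4.38 and 4.55 and was below the limit in every mouse. Cyp1b1, which is mainly an extrahepatic enzyme, was also below it in every mouse, with values of 4.99, 5.13, 5.22 and 4.86.

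In the Cyp2a subfamily, Cyp2a12, which hydroxylates steroids and bile acids, had a mean of 12.35 ± 0.21 (SD, n = 4) and was lowest in mouse 1. Its neighbour Cyp2a22 was measured at 4.71, 6.12, 6.25 and 5.50. This gene was below the limit in mouse 1 and above it in the other mice, with a 2.92-fold range. It is therefore not among the 6 genes, since it did not meet the limit on all arrays, and its low value in mouse 1 is only a bound. The windows of Cyp2a12 and Cyp2a22 were identical at 84.2% of aligned positions.

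In the Cyp2b subfamily 1 of 5 genes was above background, beside 61.5% of all genes. This was Cyp2b10, the most commonly used target of CAR in mouse liver. It was measured at 6.38, 6.31, 6.37 and 6.52, a 1.16-fold range in which mouse 1 did not stand apart. In the same mice Nr1i3, which encodes CAR, was measured at 7.45, 8.20, 8.17 and 7.78. In mouse 1, Nr1i3 differed from the other mice by -0.60 and Cyp2b10 by -0.02. The median difference of all genes in their classes of mean expression was -0.21 for Nr1i3 and -0.01 for Cyp2b10. Of the 13 measured CAR- and PXR-responsive genes, 9 were above background, beside 61.5% of all genes. Cyp2c50 and Cyp2c54 were the 2 among them with more than a 1.5-fold range, beside 12.9% of all genes above background. The median difference of mouse 1 over the 9 genes was -0.25. It was -0.08 over all genes above background and -0.23 over those in the highest class of mean expression.

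The Cyp2c subfamily, whose enzymes oxidize arachidonic acid and many drugs, contained 5 of the 6 genes with more than a 1.5-fold range. It held 11 of the 32 members above background. This range was exceeded by 12.9% of all genes above background and 14.1% of those in the highest class of mean expression. Of the 11 Cyp2c genes above background, 10 were lowest in mouse 1. The shares for all genes were 46.1% of those above background and 78.1% in the highest class of mean expression. These 11 Cyp2c genes are described next. Their median difference in mouse 1 was -0.42, and their median SD was 0.23 with and 0.13 without mouse 1. At the other end, Cyp2c29, an arachidonic acid epoxygenase induced through CAR, was measured at 11.85, 11.84, 11.98 and 11.94. Its SD of 0.07 was the smallest of all members above background, and mouse 1 was not the lowest.

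The next gene along chromosome 19 is Cyp2c39, a retinoic acid hydroxylase, which was measured at 5.78, 6.12, 6.90 and 6.59. The 4 values were spread out with no pair close together, and the range of 2.18-fold was the only one above 2-fold among members above background. It was also near the limit, and was not above background when the 99th percentile was used. Cyp2c38 follows with 8.65, 9.46, 9.65 and 9.32, a range of 2.00-fold after rounding. Mouse 1 was lowest, with a difference of -0.83 from the other mice. The window of Cyp2c29 printed here was identical to that of Cyp2c38 at 70.8% of aligned positions, and the SDs of these genes were 0.07 and 0.43.

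Further along the run, Cyp2c67 had a mean of 11.78 ± 0.23 (SD, n = 4) and Cyp2c68 was measured at 8.88, 9.28, 9.72 and 9.73. For Cyp2c68, mice 3 and 4 were nearly equal, mouse 2 was intermediate and mouse 1 was lowest, with a 1.80-fold range. The windows of both genes hold CAAAGTCCA and were identical at 65.9% of aligned positions. A second run of neighbours consists of Cyp2c37, Cyp2c54, Cyp2c50 and Cyp2c70. In mouse liver Cyp2c37, Cyp2c50 and Cyp2c54 are pericentral and oxidize arachidonic acid, and Cyp2c70 makes muricholic bile acids.

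Cyp2c54 was measured at 9.22, 9.94, 10.13 and 9.79, a 1.87-fold range. Cyp2c50 was measured at 9.96, 10.50, 10.61 and 10.35, a 1.57-fold range. Both had the same order of mice, with mouse 1 lowest, then mice 4, 2 and 3. The genes on either side of them spread less, with an SD of 0.14 for Cyp2c37 and 0.17 for Cyp2c70, although the windows of Cyp2c37 and Cyp2c50 were identical at 86.6% of aligned positions. Cyp2c23, an epoxygenase outside these runs that is also active in kidney, was measured at 11.53, 11.70, 11.69 and 11.67 and had an SD of 0.08.

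After quantile normalization, mouse 1 differed from the other mice by 0.13 for Cyp2c29, 0.03 for Cyp2c23 and -0.03 for Cyp2c37. The difference was -0.63 for Cyp2c38, -0.80 for Cyp2c39, -0.53 for Cyp2c54 and -0.50 for Cyp2c68. Neighbouring Cyp2c genes thus differed in the same mouse on the same array, on either scale. Probes of near-identical paralogs can bind each other's transcripts, and a shared signal cannot be separated here for these genes.

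**Figure D3:**
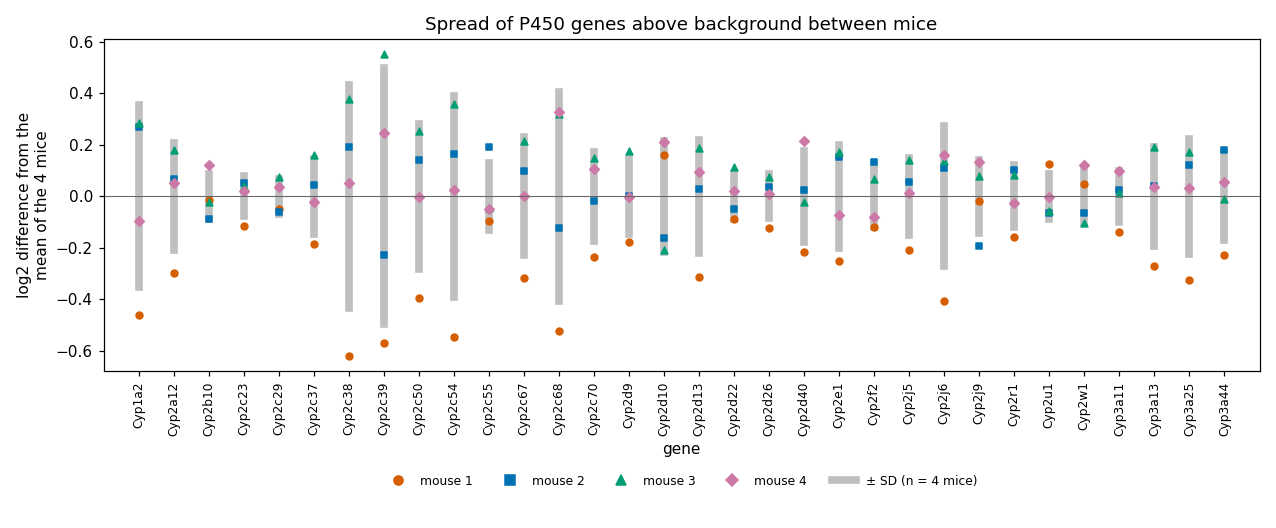
Log2 difference of each mouse from the mean of the 4 mice (y axis) for the 32 P450 genes above background, with ± SD as grey bars. Mouse 1 is the lowest point for 26 genes, and the widest bars belong to Cyp2c39, Cyp2c38, Cyp2c68, Cyp2c54 and Cyp1a2.

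None of the 6 Cyp2d genes above background exceeded a 1.5-fold range, beside 12.9% of all genes above background. The Cyp2d genes are the mouse counterparts of the human drug-metabolizing CYP2D genes. Cyp2d26 was measured at 12.69, 12.85, 12.89 and 12.82, with the third smallest SD of the members above background (0.09). Cyp2d22 had a similar SD of 0.09. Cyp2d10 was measured at 10.16, 9.83, 9.79 and 10.21, so that mice 1 and 4 were higher than mice 2 and 3. This is the same grouping of mice as for the acinar genes. The periportal hepatocyte markers Asl, Arg1 and Hal had it too, whereas Ctsc, Pigr and Cdh1 did not. The part of either cell type in the value was not tested. Cyp2d13 and Cyp2d40 had means of 8.93 ± 0.22 and 8.08 ± 0.18 (SD, n = 4).

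Cyp2e1, the pericentral enzyme that oxidizes ethanol, acetone and fatty acids and converts paracetamol to its reactive product, was measured at 13.01, 13.42, 13.43 and 13.19. Mouse 1 was lowest and mouse 4 intermediate, as for Cyp1a2, but the range was only 1.34-fold. Cyp2f2, a periportal gene whose enzyme activates naphthalene, was measured at 12.88, 13.13, 13.06 and 12.92, a 1.19-fold range in which mice 1 and 4 were nearly equal. The highest value on any array was between 14.48 and 14.53, so differences of such bright probe sets may be compressed, which was not tested.

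All 7 measured pericentral P450 genes were above background, beside 61.5% of all genes. Of these 7, Cyp1a2, Cyp2c50 and Cyp2c54 exceeded a 1.5-fold range. This range was exceeded by 12.9% of all genes above background and 14.1% of those in the highest class of mean expression. The median difference of the 7 pericentral genes in mouse 1 was -0.34, compared with -0.23 for all genes of this class. The non-P450 pericentral markers had a median difference of -0.50 in mouse 1 and the periportal ones of 0.00. Cyp2f2, the only periportal member, differed by -0.16. Whether the position of the sampled tissue in the lobule has a part in this was not tested.

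Of the 6 Cyp2j genes, whose enzymes form epoxides from arachidonic acid, Cyp2j5, Cyp2j6 and Cyp2j9 were above background, beside 61.5% of all genes. Cyp2j6 was measured at 7.90, 8.41, 8.44 and 8.46, so that mice 2, 3 and 4 were nearly equal and mouse 1 was lower, with a difference of -0.54. The range of 1.48-fold was just inside the limit. Its neighbour Cyp2j9 differed by only -0.02 in mouse 1, and Cyp2j5 had a mean of 11.90 ± 0.15 (SD, n = 4).

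A further list held 11 members, most of them orphan enzymes or enzymes described in other tissues. Of these 11, 3 were above background, beside 61.5% of all genes. Cyp2r1, which hydroxylates vitamin D in liver, had a mean of 7.66 ± 0.12 (SD, n = 4). Cyp2u1, which hydroxylates long-chain fatty acids, was measured at 8.90, 8.71, 8.72 and 8.78. Among the 32 members above background, Cyp2u1 was the only one highest in mouse 1 before quantile normalization. Cyp2w1, an orphan enzyme of the gut, had a mean of 5.94 ± 0.10 (SD, n = 4), close to the limit, and was not above background when the 99th percentile was used.

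In the Cyp3a subfamily, 4 of 6 genes were above background, beside 61.5% of all genes. All 4 were lowest in mouse 1, as were 46.1% of all genes above background and 78.1% of those in the highest class of mean expression. Cyp3a11, the major drug-metabolizing Cyp3a enzyme of mouse liver and a PXR target, was measured at 12.97, 13.14, 13.13 and 13.21. Its range of 1.18-fold was narrow, and Nr1i2, which encodes PXR, had a similar range of 1.17-fold with values of 7.51, 7.74, 7.70 and 7.64. Cyp3a13 and Cyp3a25 had means of 9.62 ± 0.19 and 11.51 ± 0.22 (SD, n = 4).

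The sex-biased genes were examined because all mice were male. Cyp2d9, a testosterone hydroxylase of male liver, was measured at 10.20, 10.38, 10.55 and 10.37, with all mice well above the limit. Of 9 genes that are predominant in female liver, 4 were measured singly. Of these 4, 1 was above background, beside 61.5% of all genes, namely Cyp3a44 with 8.79, 9.20, 9.01 and 9.07. Cyp2a4, Cyp2c40, Cyp2c69, Cyp3a41a and Cyp3a41b lie only on probe sets with several symbols, which were above background in every mouse. Probe set 10535669 carries only Cyp3a41a, Cyp3a41b and Cyp3a44 and had a mean of 10.48. The other shared probe sets also carry genes outside this list. Cyp3a44 shares several probe sets with its Cyp3a41 and Cyp3a11 paralogs, and how far its own probe set responds to them cannot be told from these data.

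The other 3 female-predominant genes that were measured singly were low. Cyp2b9 was measured at 4.83, 5.45, 5.41 and 4.74 and was above the limit in mice 2 and 3. Cyp2b13 was measured at 3.70, 2.73, 2.75 and 3.11, and Cyp3a16, which is also a fetal gene, at 3.44, 3.47, 3.56 and 3.62. The windows of Cyp2b9 and Cyp2b13 were identical at 99.3% of positions, and those of Cyp3a16 and Cyp3a44 at 93.4%, although Cyp3a44 was above background in every mouse and Cyp3a16 in none.

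Genes that serve the P450 enzymes were examined as a second list of 36 partners and regulators measured singly. Por, which encodes P450 oxidoreductase, was not analysed here. Of these 36 genes, 33 were above background, beside 61.5% of all genes. A 1.5-fold range was exceeded by 10 of them, again beside 12.9% of all genes above background. Without mouse 1 this range was exceeded by 2 genes, Onecut1 and Bcl6, beside 2.7% of all genes above background in mice 2, 3 and 4.

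Electron supply was represented by 5 genes above background, 2 of them with more than a 1.5-fold range, beside 12.9% of all genes above background. Cyb5b, a cytochrome b5 of the outer mitochondrial membrane, was measured at 10.27, 10.80, 10.88 and 10.59. Cyb5r3, the NADH reductase of cytochrome b5, was measured at 12.06, 12.66, 12.65 and 12.26. Both were lowest in mouse 1 with mouse 4 next. Cyb5a, the microsomal cytochrome b5, had the same order with 11.44, 11.85, 11.85 and 11.59, within a 1.33-fold range.

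Among 8 measured genes of heme synthesis, 1 exceeded a 1.5-fold range, a share close to the 12.9% of all genes above background. The gene was Cpox, coproporphyrinogen oxidase, with 9.39, 10.004, 9.86 and 9.63. Alas1, the rate-limiting enzyme of heme synthesis in liver, was measured at 10.41, 10.18, 10.23 and 10.52, so that mice 1 and 4 were higher than mice 2 and 3 by a small margin. The median difference of mouse 1 over the heme synthesis genes was -0.02. None of the 4 genes of heme breakdown exceeded the range, and Hmox1, heme oxygenase, was measured at 7.15, 7.00, 6.95 and 7.22. The epoxide hydrolases Ephx1 and Ephx2, which open epoxides formed by P450 enzymes, had ranges of 1.24-fold and 1.23-fold.

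Of 14 regulators above background, 7 exceeded a 1.5-fold range, beside 12.9% of all genes above background. Without mouse 1, 2 of the regulators did so, beside 2.7% of all genes above background in mice 2, 3 and 4. The directions of the 7 genes differed. Ahr, the receptor that induces Cyp1a2, was measured at 7.79, 8.59, 8.83 and 8.38, a 2.05-fold range with mouse 1 lowest and mouse 4 next. Nfe2l2, the oxidative stress regulator NRF2, had 9.02, 9.92, 9.98 and 9.52 in the same order. Nr1i3 and Stat5b, the latter with 7.81, 8.18, 8.46 and 8.03, were likewise lowest in mouse 1 with mouse 4 next.

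Cebpa, a hepatocyte transcription factor, ran the other way with 9.91, 9.18, 9.31 and 9.72, so that mice 1 and 4 were higher than mice 2 and 3. Onecut1, which encodes HNF6 and is expressed in liver and pancreas, was measured at 9.20, 7.16, 7.71 and 8.92. Its 4.12-fold range followed the same split of mice as the acinar genes and the periportal markers Asl, Arg1 and Hal. The part of either cell type in this range was not tested. Bcl6, a repressor that is more abundant in male than in female liver, was measured at 5.81, 7.42, 7.53 and 6.74. Mouse 1 was lowest and mouse 4 intermediate, with a 3.30-fold range. The value of mouse 1 was near the limit, and Bcl6 was not above background when the 99th percentile was used.

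The remaining regulators varied less. Hnf4a was measured at 10.19, 10.60, 10.62 and 10.48, and Nr1i2, Arnt, Rxra, Cebpb, Stat5a and Cux2 had ranges between 1.08-fold for Arnt and 1.17-fold for Nr1i2. Cux2, a factor of female liver, was above background and had a 1.14-fold range. After quantile normalization 6 partner and regulator genes kept more than a 1.5-fold range, beside 10.6% of all genes above background. All 6 were regulators, namely Ahr, Bcl6, Cebpa, Nfe2l2, Nr1i3 and Onecut1. Cyb5b, Cyb5r3, Cpox and Stat5b did not keep it.

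**Figure D4:**
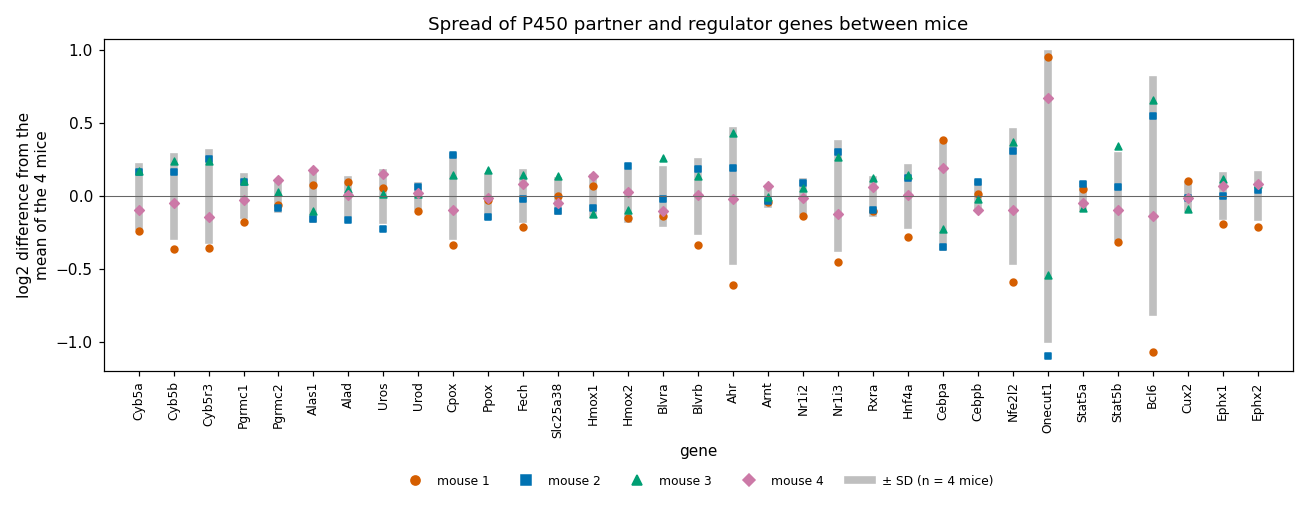
Log2 difference of each mouse from the mean of the 4 mice (y axis) for the 33 partner and regulator genes above background, with ± SD as grey bars. Onecut1 and Bcl6 have the widest bars and run in opposite directions in mouse 1, with Onecut1 at 9.20 and Bcl6 at 5.81 on the log2 scale.

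For comparison, 22 of 31 measured P450 genes of families 4 and above, which act mainly on fatty acids, bile acids and sterols, were above background. Of these, 5 exceeded a 1.5-fold range and 15 were lowest in mouse 1. Over all genes these shares were 61.5% above background and, among those, 12.9% and 46.1%. Their median SD was 0.14 and their median difference in mouse 1 was -0.16. Both values were smaller than those of families 1 to 3, and the difference between the groups of families was not tested.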

How the data were processed

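Liver RNA of 4 aP2-SREBP-1c mice, 150 ng each, was hybridized to Mouse Gene 1.0 ST arrays. The authors deposited gene-level log2 expression values made with RMA and the Affymetrix Expression Console, per the submitters' processing notes. RMA corrects background, normalizes across arrays and summarizes the probes of a gene. Which arrays were normalized together and the genome build are not given in the sources used here. The platform annotation named 1 gene for 21789 of 35556 probe sets and several for 1621, and 12146 stayed unnamed here. Only those with 1 gene were used, taking the probe set with the highest mean for each gene, and 0 value columns lacked a sample.

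Means, SDs, folds and counts were computed with Python 3.11.15, numpy 2.4.6, pandas 2.3.3 and matplotlib 3.10.9, and the steps were tested on simulated data. The numbering of the mice follows the labels. The members, role lists and partner lists were chosen with earlier results of these data known. Every member above background was named. Values of all mice were given for members above 1.5-fold, the 3 with the smallest SD, those nearest the limit, the sex-biased and AhR-responsive genes and a few well-known enzymes, and some further members whose order of mice differed were chosen after their values were seen. Promoter windows and gene order came from RefSeq (GRCm38.p6), and identity was taken over aligned positions, gaps included. The alternatives were median-centred arrays, quantile normalization, other background limits, no filter, a 2-fold range, the mean of a gene's probe sets and leaving out each mouse. The number of arrays limits the precision, and SDs measure the spread between these mice.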

Additional observations from a re-analysis of the deposited data

Results flagged for a closer look

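Mouse 1 stood apart for Cyp2j6, at -0.54 relative to the mean of the other mice, a gap that exceeded Dixon's critical value for 4 samples. This applied to 1 of 53 members and to 0 of 15 partner genes examined in this way. Of all genes above background, 5.75% met the same criterion, and chance alone gives about 1 in 20.

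Probe sets with several symbols were not used for the counts, yet all 5 of those carrying genes of families 1 to 3 were above background in every mouse. Probe set 10467390, shared by 4 Cyp2c genes, had a mean of 11.47. Among the Cyp3a genes, probe set 10527494 with 3 symbols had a mean of 10.63, with 10.14, 10.81, 10.89 and 10.70 in mice 1 to 4 and a 1.69-fold range. Probe set 10535669 with 3 symbols had a mean of 10.48 and probe set 10535683 with 4 symbols one of 10.44. Probe set 10551226, shared by 2 Cyp2a genes, had a mean of 10.20. Of these 5 probe sets, 4 were lowest in mouse 1 and the Cyp2a probe set was lowest in mouse 2. Mouse 1 was lowest for 46.1% of all genes above background and 78.1% of those in the highest class of mean expression. The probe set of the pseudogene Cyp2d37-ps was above background as well, with a mean of 8.80. Which of the paralogs gives these signals cannot be told apart.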

How the results depend on the processing

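The count of members above background ranged from 29 at the 99th percentile, where Cyp2c39, Cyp2c55 and Cyp2w1 were lost, to 35 at the 90th. The count of 6 members with more than a 1.5-fold range became 17 with no filter on low values, where all 53 members were judged, and 1 with a 2-fold range. It was between 2 and 6 when each mouse was left out in turn, and the 2 genes without mouse 1 were Cyp2c39 and Cyp2a22. Quantile normalization together with leaving out mouse 1, chosen after seeing the data, gave 2 as well. With median-centred arrays it was 9, adding Cyp2c67, Cyp2d13 and Cyp2j6. The median SD was between 0.10 and 0.19 when each mouse was left out, with the lowest value without mouse 1. For the partner and regulator genes, the count of 10 became 9 at the 99th percentile, where Bcl6 was lost, 6 after quantile normalization, 3 with a 2-fold range, and between 2 and 10 when each mouse was left out, with 2 genes without mouse 1. The cause was not tested beyond the smaller number of arrays or genes that an alternative itself brings. The median difference of mouse 1 stayed negative under all alternatives run, and all 371 recomputed levels of single members moved by less than 1 SD. No paired analysis was possible because only 1 group of mice was measured. Signal over background limits the members near 5.5 on the log2 scale.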
